A study of Mus musculus with 54 samples.

Results

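The genes described here are 54 mouse olfactory receptor genes whose RNA was found in the testis. They were chosen by measured level: a row of the testis count table with a symbol of the form Olfr and a number was kept when its mean over the 27 testis libraries was 0.2 CPM (counts of the gene per 1000000 counts of the library) or more. Of the 1118 Olfr rows among 26264 genes, 54 (4.83%) met this limit. A further 568 had reads in testis but a lower mean, and 496 had no read in any of the 27 libraries. The testis level is therefore the basis of the choice and is given below as a description, with no test. The mean takes 18 of its 27 libraries from F2 animals, so F2 levels weigh more in it.

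Olfactory receptors are G protein-coupled receptors of the largest gene family of the mouse. In the nose each sensory neuron expresses a single receptor allele, and an odorant raises cyclic AMP through the G protein Golf (Gnal) and adenylyl cyclase 3 (Adcy3), which opens a cyclic nucleotide-gated channel. Some receptors are also transcribed outside the nose, and in sperm a few have been studied as sensors in swimming and chemotaxis.

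Testes were collected at 35 days post-partum and ovaries at 30 days. Pregnant mice and their F1 progeny drank water with 0.001% ethanol (control), with dose 1 of a drug cocktail (ibuprofen 11.3, 2-hydroxyibuprofen 90, diclofenac 22.5 and ethinyl-estradiol 2.25 ng/L) or with dose 2 (113, 225, 112 and 45 ng/L), starting at 8.5 days post-coitum. F2 animals came from 6 crosses of F1 parents, named here by the exposed parent: control cross, maternal dose 1, maternal dose 2, paternal dose 1, paternal dose 2 and biparental dose 2. In the maternal and paternal crosses the other parent was a control animal. No dose is stated for the F2 animals themselves. Each tissue has 9 groups of 3 libraries (A, B and C), 54 libraries in all. No strain is given, nor whether the 3 libraries of a group came from separate animals or litters, so the spread between them may be partly technical.

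In units of 1000000 counted reads, testis libraries held 31.6 to 48.2, apart from F1 dose 1 C with 122.4, and ovary libraries 36.6 to 84.7. Germ cell genes were present in every testis library: the 16 markers of elongating spermatids, the last stage before sperm release, summed to 15613 to 30566 CPM in F1 and 18618 to 22081 CPM in F2. F1 testes spread more widely than F2 testes, with F1 dose 2 B lowest and F1 dose 2 C highest on that sum. 1 ovary library, F1 control A, held the most transcripts typical of testis: the protamine gene Prm1 stood at 251.5 CPM there against 0 to 16.6 CPM in the other 26, and the elongating spermatid markers summed to 2164 CPM against 77.2 to 251.1 CPM. The other F1 ovary libraries were also above those of F2. Prm1 was at 2.36 to 16.6 CPM in them and at 0 to 0.201 CPM in F2 ovary. Their elongating spermatid markers summed to 109.9 to 251.1 CPM, against 77.2 to 99.4 CPM in F2 ovary. Ovary values are therefore given with and without F1 control A. Leaving it out does not remove the testis transcripts of the other F1 ovary libraries. Of 14 markers of olfactory sensory neurons, 5 stood at 1 CPM or more in testis (Umodl1 12.1, Adcy3 5.60, Gnal 4.83, Rtp1 1.70 and Gng8 1.21 CPM), and the list summed to 18.4 to 35.7 CPM. Olfactory marker protein (Omp) averaged 0.125 CPM and the channel subunit Cnga2 0.126 CPM.

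RefSeq promoter windows (build GRCm38.p6) were available for 45 of the 54 genes. The 250 bases before the annotated start are shown for 4 genes on which the results below turn: Olfr1188 (chr2:88559201-88559450, plus strand) and Olfr1186 (chr2:88525251-88525500, plus strand), neighbours that appear and disappear together, and Olfr613 (chr7:103550118-103550367, plus strand) and Olfr1509 (chr14:52450143-52450392, plus strand), the genes that passed a test. Each is written 5′ to 3′, and capitals mark the TATA box motif TATAAA.
Olfr1188: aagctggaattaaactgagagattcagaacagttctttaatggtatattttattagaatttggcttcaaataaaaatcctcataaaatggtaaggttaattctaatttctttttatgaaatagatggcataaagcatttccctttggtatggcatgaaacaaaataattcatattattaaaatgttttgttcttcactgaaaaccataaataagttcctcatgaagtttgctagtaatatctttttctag
Olfr1186: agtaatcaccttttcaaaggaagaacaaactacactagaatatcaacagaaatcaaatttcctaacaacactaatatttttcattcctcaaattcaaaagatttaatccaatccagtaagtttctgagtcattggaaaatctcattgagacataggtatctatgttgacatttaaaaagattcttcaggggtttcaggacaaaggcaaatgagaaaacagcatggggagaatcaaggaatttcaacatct
Olfr613: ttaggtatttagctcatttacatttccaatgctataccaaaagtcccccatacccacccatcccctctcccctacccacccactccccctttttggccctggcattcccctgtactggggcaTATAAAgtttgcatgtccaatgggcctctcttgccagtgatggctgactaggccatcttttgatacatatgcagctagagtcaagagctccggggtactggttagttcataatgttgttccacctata
Olfr1509: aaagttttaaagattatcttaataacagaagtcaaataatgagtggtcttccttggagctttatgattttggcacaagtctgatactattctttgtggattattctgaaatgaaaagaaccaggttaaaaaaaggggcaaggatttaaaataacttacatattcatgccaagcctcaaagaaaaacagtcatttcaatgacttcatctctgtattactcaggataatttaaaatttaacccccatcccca
The TATA motif was found in Olfr613 alone among these 4, starting 128 bases before the start. Over both strands it was present in 35.6% of the 45 member windows, in 39.6% of the 939 Olfr windows and in 14.3% of all 27025 genes with a window. The homeodomain motif TAATTA, a letter pattern described upstream of many nasal receptor genes, was in 24.4% of member windows, 18.2% of Olfr windows and 5.65% of all. The cyclic AMP response element TGACGTCA, which the spermatid factor CREM binds in many testis genes, was in 0 of the 45 member windows. It was in 0.106% of Olfr windows and in 1.77% of all genes' windows. Its shorter core TGACG, contained in that element, was in 2.22% of member windows, 4.26% of Olfr windows and 19.8% of all. The core CCCNNGGG of the olfactory factor EBF was in 0 member windows, 2.77% of Olfr windows and 13.4% of all. The MYB pattern AACNGNC was in 15.6%, 16.5% and 30.6% in the same order. These are matches of letters in windows that all genes of the table share in length. The Olfr1188 and Olfr1186 windows have the same base in 47.0% of the columns of their global alignment, gaps included.

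A few genes carried most of the receptor RNA. The 54 genes held 87.2% of all Olfr reads in testis, and the sum of their levels averaged 76.6 CPM, from 48.7 CPM in F1 dose 2 C to 98.4 CPM in F2 control cross A. The first 3 genes made up 51.6% of that sum and the first 5 made up 65.6%. By level, 9 genes stood at 1 CPM or more, 17 between 0.5 and 1 CPM, and 28 between 0.2 and 0.5 CPM. In the last class, Olfr975 (0.214 CPM), Olfr1037 (0.209) and Olfr1445 (0.204) were just inside the limit, and Olfr456 (0.199), Olfr361 (0.194) and Olfr193 (0.192) just outside. Olfr16, known as MOR23 and among the receptors studied in mouse sperm, averaged 0.141 CPM in testis and fell short of the limit.

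**Figure D1:**
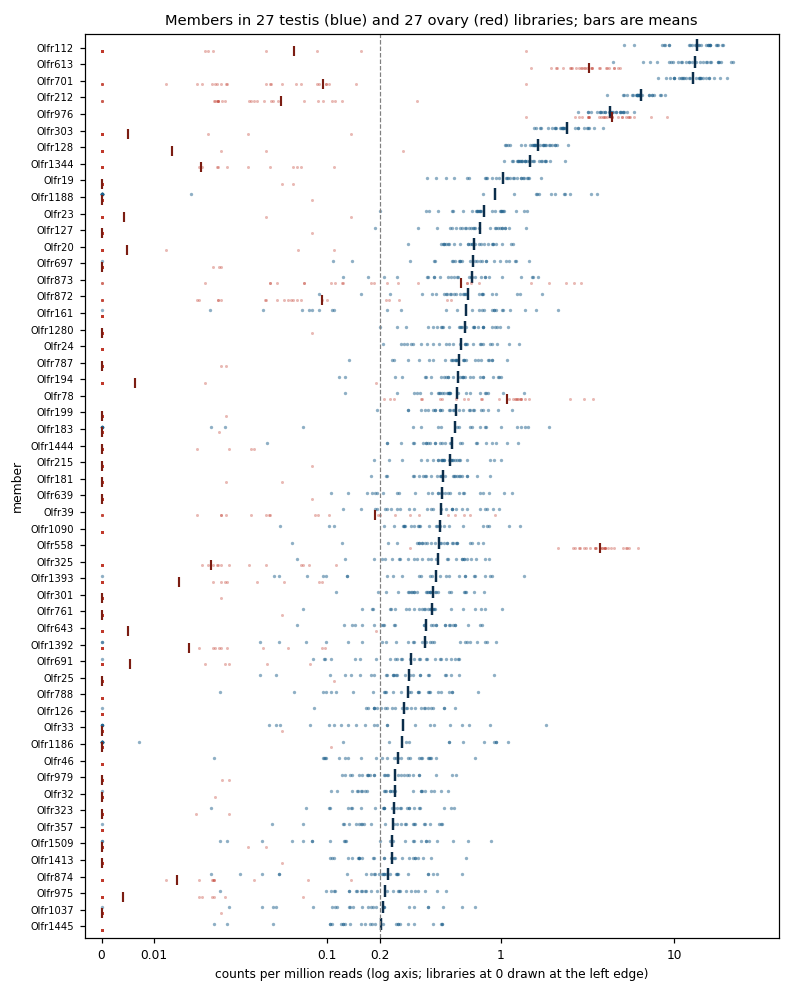
Each row is 1 of the 54 genes and each point 1 library, on a log axis of CPM, with testis in blue, ovary in red, bars for means and a dashed line at the 0.2 CPM limit. Olfr112, Olfr613 and Olfr701 lead at 12.9 to 13.4 CPM in testis, and in ovary the red points rise to testis height for few genes, such as Olfr976, Olfr558 and Olfr78.

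Olfr112 averaged 13.4 ± 3.85 CPM (SD, n = 27 testis libraries), Olfr613 13.2 ± 4.43 and Olfr701 12.9 ± 2.94. Olfr212 followed at 6.45 ± 1.06 CPM, Olfr976 at 4.27 ± 0.735, Olfr303 at 2.41 ± 0.597 and Olfr128 at 1.64 ± 0.342. Olfr1344 stood at 1.48 ± 0.288 CPM, Olfr19 at 1.03 ± 0.350 and Olfr1188 at 0.923 ± 1.18. The first 9 had reads in all 27 testis libraries, whereas Olfr1188, with an SD above its mean, did not.

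Between genes, levels were compared per kilobase of annotated exon (GENCODE M21). On that scale Olfr701 came first at 3.07 ± 0.701 CPM per kb, then Olfr112 at 2.82 ± 0.810, Olfr613 at 2.53 ± 0.848 and Olfr212 at 2.31 ± 0.381. Neighbours among these 4 differ by less than 1 SD. Olfr976 was next at 1.26 ± 0.217 CPM per kb, and Olfr1188, Olfr697 and Olfr303 came after it at 0.657, 0.578 and 0.575 CPM per kb.

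Reads of Olfr genes can be shared between close copies. Among the 54 genes, 32 shared at least 1 stretch of 100 bases of transcript with another gene, and 8 shared over 10% of such stretches. Olfr20 shared 90.6% and Olfr1344 72.0%, mainly with Gm49340 and Gm20715, genes whose exons overlap theirs, so their levels are uncertain. The others were Olfr643 (26.97%), Olfr325 (16.2%), Olfr1393 (15.3%), Olfr78 (12.8%), Olfr1392 (12.8%) and Olfr46 (12.1%). For Olfr112, Olfr613 and Olfr212 the share was 0.808%, 1.39% and 0.780%, and Olfr701, Olfr1186, Olfr1188 and Olfr1509 shared none. Exons of 7 members overlap those of another gene.

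Spread within groups of 3 differed between genes. The within-group coefficient of variation (SD as a percent of the mean) had a median of 44.1% over the 54 genes. It was under 30% in 9 genes, with Olfr212 at 13.8%, Olfr128 at 15.2% and Olfr976 at 16.1%. It was over 60% in 10 genes, with Olfr1186 at 143.9%, Olfr1188 at 129.0% and Olfr33 at 122.9%. Reads were present in all 27 libraries for 40 genes, 14 were at 0 in at least 1 library, and 2 of these in 10 or more. Olfr161, at 83.8%, ran from 0 to 2.14 CPM within the maternal dose 1 cross, and Olfr33 took values of 0.319 to 1.82 CPM among paternal dose 1 libraries.

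In ovary most of the 54 genes were close to 0. Their summed level averaged 13.7 CPM in ovary, and 13.2 CPM without F1 control A, which alone had 25.8 CPM. 44 genes averaged under 0.05 CPM in ovary (47 without F1 control A), and 8 had no read in any ovary library. For 24 genes F1 control A was the highest ovary library. Olfr112 stood at 1.39 CPM in that library and at 0 to 0.157 CPM in the other 26, where its mean was 0.0135 CPM. Olfr701 likewise stood at 1.39 CPM there and at 0 to 0.146 CPM elsewhere. The part of testis-type RNA in the other members' ovary values was not tested.

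Olfr976, Olfr558 and Olfr78 had an ovary mean at or above their testis mean. Olfr558 and Olfr78 are known from blood vessels, and Olfr78 as a receptor for short-chain fatty acids. Olfr558 averaged 3.74 CPM in ovary (0.301 to 6.16) and 0.440 CPM in testis (0.0629 to 0.789), and the ovary libraries lay above all testis libraries except the lowest, F2 maternal dose 1 C. That library also had the lowest summed level of the 54 genes in ovary, 3.68 CPM. Olfr78 averaged 1.09 CPM in ovary (0.211 to 3.38) and 0.556 CPM in testis (0.126 to 1.36), with overlapping libraries. Olfr976 averaged 4.36 CPM in ovary (1.397 to 9.09) and 4.27 CPM in testis (2.77 to 5.83). Without F1 control A the ovary mean of Olfr976 was 4.18 CPM, below its testis mean. Olfr613 was the next highest in ovary at 3.20 CPM (1.48 to 4.85), and its ovary libraries overlapped a single testis library, F1 dose 2 C at 4.45 CPM. Olfr873 averaged 0.591 CPM in ovary and 0.683 CPM in testis. In all, 13 Olfr genes reached 0.2 CPM in ovary, and 5 of them were among the 54.

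Parts of the olfactory signalling chain were present in testis. Of the 21 genes of the olfactory transduction list, 15 were at 1 CPM or more in testis and 15 in ovary. Gnal averaged 4.83 ± 0.954 CPM (SD, n = 27) in testis and Adcy3 5.60 ± 0.864. The channel subunits Cnga4 and Cngb1 stood at 4.53 ± 1.03 and 10.6 ± 1.80 CPM, while Cnga2, the subunit that forms the nasal channel with them, was at 0.126 CPM. The chloride channel gene Ano2 was at 5.73 CPM, and Rtp1, whose product helps receptors reach the cell surface, at 1.70 CPM against 0.0324 CPM in ovary. The phosphodiesterase gene Pde1c reached 236.4 ± 22.0 CPM in testis. Gng13 and Rtp2, the G protein gamma subunit and a second transport factor, were at 0.202 and 0.127 CPM in testis. Gnal, Cnga4, Cngb1, Ano2 and Pde1c were also lower in ovary, at 1.29, 0.246, 6.13, 1.25 and 1.48 CPM. Adcy3 was higher in ovary, at 51.3 CPM. So were Gnas, at 950 CPM against 121 CPM in testis, and Slc24a4, at 11.8 CPM against 0.235 CPM. The 21 genes summed to 573.8 to 986.4 CPM in testis and 1476 to 1885 CPM in ovary. Tissues were not tested against each other. The 10 genes of the receptor choice list, which regulate which receptor a nasal neuron expresses, were all at 1 CPM or more in testis, with Lhx2 at 4.42 CPM and Ebf1 at 3.91 CPM. In none of the 13 tests did a gene of these 2 lists pass the threshold, with 17 or 18 of 21 and 10 of 10 tested. Their median log2 change lay between -0.09 and 0.14 for both lists in the 11 comparisons of 2 groups. In whole testis, fewer cells of a type and less RNA per cell cannot be told apart, and the values do not say which cells hold the receptor RNA.

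Other chemoreceptor families were also represented at 0.2 CPM or more in testis. Vomeronasal receptors of type 2 counted 20 of 124 (16.1%) and those of type 1 counted 13 of 230 (5.65%), beside 54 of 1118 Olfr genes. Of the trace amine-associated receptors 0 of 15 and of the bitter receptors 0 of 35 reached the limit, and of the Tas1r taste receptors 2 of 3 did. Families were not tested against each other.

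**Figure D2:**
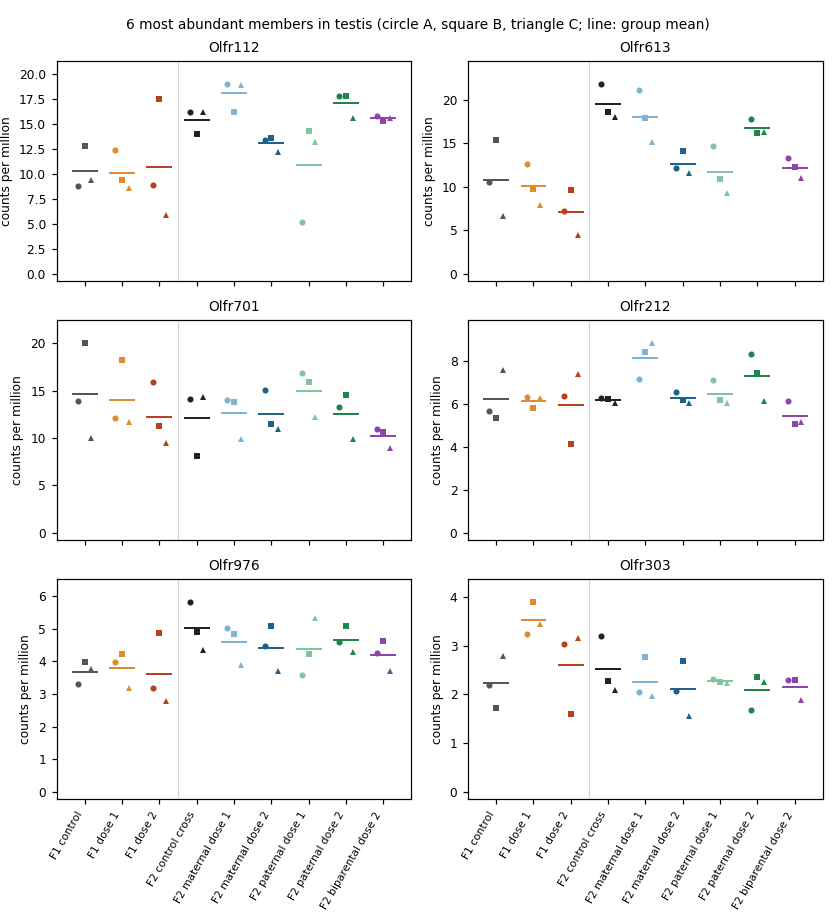
Points are CPM of the 6 most abundant genes in each testis library (circle A, square B, triangle C), lines are group means, and F1 groups stand left of the grey line. Olfr613 runs from 18 to 21.9 CPM in the F2 control cross and from 9.31 to 14.7 CPM in F2 paternal dose 1, with no overlap.

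Direct exposure was tested in F1 with edgeR's quasi-likelihood test and Benjamini-Hochberg adjustment over all genes, with an adjusted p under 0.05 counted as a call. The filter on low counts left 42 of the 54 genes in the F1 fit, and 12 were not tested. No member was called for dose 1 against control (0.021% of all genes were called), for dose 2 against control (0.00526%) or for dose 2 against dose 1 (0.0263%), and none in the test of any difference among the 3 groups (0.0263%). At an unadjusted p under 0.05 the members counted 7, 3, 6 and 5 of 42 in these tests, or 16.7%, 7.14%, 14.3% and 11.9%, beside 3.18%, 1.93%, 3.31% and 2.69% of all genes tested. The filter keeps a gene with enough counts in 3 libraries, the size of 1 group. A low-count member can therefore pass through the group where it is high, which favours a low p. Members that passed the filter are not all members, so these shares describe the 42 alone and are no measure of change in the members. DESeq2 gave all 54 an adjusted p and called 1, 0, 3 and 3 in the same order.

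Olfr1393, a receptor also described in kidney, had the lowest p in 3 of these 4 tests. It stood at 0.713, 0.620 and 0.483 CPM in F1 control, at 0.0987, 0.0943 and 0.0490 CPM in dose 1, and at 0.337, 0.885 and 0.402 CPM in dose 2. All 3 dose 1 libraries were below all other F1 libraries. The log2 change was -2.96 ± 0.47 (SE) for dose 1 against control, with an edgeR adjusted p of 0.461, and 2.84 ± 0.47 for dose 2 against dose 1, with 0.425. DESeq2 gave adjusted p values of 0.00190 and 0.00312 for the same differences. Its neighbour Olfr1392 was also low in dose 1, at 0.0987, 0 and 0.0409 CPM against 0.132 to 0.725 CPM in control. These 2 genes share transcript stretches, so that their counts are not fully independent. In F2 maternal dose 1, whose mothers had drunk dose 1, Olfr1393 stood at 0, 0.0528 and 0.444 CPM, beside 0.390 to 0.621 CPM in the control cross, a difference that did not pass (edgeR adjusted p 0.760).

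Olfr183 had the lowest p for dose 2 against control. It had 0 counts in all 3 F1 dose 2 libraries, 25, 1 and 3 counts in control, and 50, 60 and 176 counts in dose 1, the last in the deepest library. In CPM that was 0.660, 0.0214 and 0.0725 in control and 1.23, 1.89 and 1.44 in dose 1. Dose 1 libraries stood above all other F1 libraries. The edgeR adjusted p was 0.982 for dose 2 against control and 0.826 for dose 2 against dose 1, and DESeq2 gave 1.28e-05 for the latter. Olfr873, a member next to Olfr39, was called by DESeq2 alone for dose 2 against dose 1 (adjusted p 0.00288, edgeR 0.826). It stood at 0.123, 0.377 and 0.172 CPM in dose 1 and at 1.64, 1.51 and 0.514 CPM in dose 2, without overlap. For Olfr183 in F2, the level ranged from 0 in 4 libraries to 1.38 CPM, with 0 and reads side by side in 3 of the 6 crosses.

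**Figure D3:**
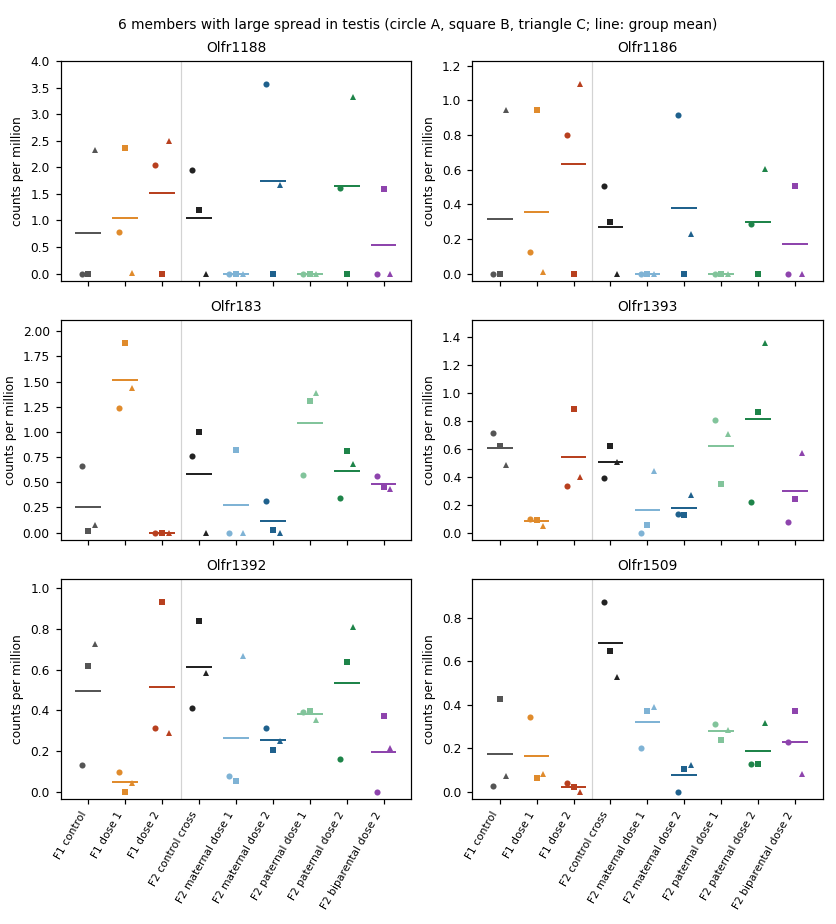
Points are CPM of 6 members with wide spread in each testis library (circle A, square B, triangle C), and lines are group means. Olfr1188 and Olfr1186 are at 0 in the same 14 libraries, Olfr183 is at 0 in all 3 F1 dose 2 libraries, and Olfr1509 is highest in the F2 control cross.

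In F2 all 54 genes were tested. 1 member was called for maternal dose 2 against the control cross (0.372% of all genes) and 1 for paternal dose 1 (0.201%). No member was called for maternal dose 1 (0.0103%), paternal dose 2 (0.00516%) or biparental dose 2 (0.0155%) against the control cross. None was called for maternal against paternal dose 1 (0.0413%), for maternal against paternal dose 2 (0.119%) or for any difference among the 6 groups (0.16%). At an unadjusted p under 0.05 the members counted 11, 11, 6, 6, 8, 6, 5 and 13 of 54 in the order of these 8 tests. Beside the share of all genes, that was 20.4% against 15.7% for maternal dose 2, 20.4% against 12.5% for paternal dose 1, 11.1% against 6.54% for maternal dose 1, 11.1% against 5.02% for paternal dose 2 and 14.8% against 7.02% for biparental dose 2. It was 11.1% against 11.5% for maternal against paternal dose 1, 9.26% against 16% for maternal against paternal dose 2 and 24.1% against 12.8% for any difference. DESeq2 called 2, 1, 0, 0, 1, 1, 0 and 3 members in the order of the tests, of the 35, 9, 54, 54, 54, 24, 5 and 52 members to which it gave an adjusted p. These DESeq2 calls were Olfr613, apart from Olfr39 in maternal dose 2 (adjusted p 0.0310) and Olfr1509 and Olfr212 for any difference (0.00685 and 0.0354). The 5 comparisons with the control cross share its 3 libraries.

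Olfr613 fell in paternal dose 1. It stood at 21.9, 18.6 and 18 CPM in the control cross and at 14.7, 10.9 and 9.31 CPM in paternal dose 1, so the groups did not overlap. The log2 change was -0.77 ± 0.15 (SE), with an edgeR adjusted p of 0.0407 and lower levels in 3 of 3 libraries. The call was lost without any 1 library of the control cross, and without library B or library C of paternal dose 1 (edgeR adjusted p 0.0862 to 0.227) and held without its library A (0.00915). With only these 6 libraries in the fit the adjusted p was 0.140, and with all 27 testis libraries it was 0.709. The call held with RLE size factors in place of TMM scaling (edgeR adjusted p 0.0417) and without the filter on low counts (0.0294). It also held with the library letter as a block (0.00401) and with DESeq2 (0.000261).

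In the other exposed crosses, Olfr613 overlapped the control cross in maternal dose 1 alone. Maternal dose 1 had 21.2, 17.9 and 15.1 CPM, maternal dose 2 had 12.1, 14.2 and 11.6, paternal dose 2 had 17.8, 16.1 and 16.3, and biparental dose 2 had 13.3, 12.2 and 11.03. Libraries of maternal dose 2, paternal dose 2 and biparental dose 2 were all below the lowest control cross library. The log2 change was -0.67 ± 0.15 (SE) for biparental dose 2, with an edgeR adjusted p of 0.242, and Olfr613 also had the lowest member p in the test of any difference (0.0573). DESeq2 called Olfr613 in both tests, with adjusted p values of 0.0155 and 3.78e-06, and also in maternal dose 2 (0.00506), where edgeR gave 0.0783. Maternal dose 1 was higher than paternal dose 1 by 0.66 ± 0.15 on the log2 scale, with an edgeR adjusted p of 0.140 and a DESeq2 adjusted p of 0.00785. Without paternal dose 1 A the edgeR value was 0.0305. In F1 the gene stood at 10.5, 15.4 and 6.60 CPM in control, 12.7, 9.77 and 7.91 in dose 1, and 7.24, 9.62 and 4.45 in dose 2, with overlapping groups.

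Olfr613 moved with round spermatid markers in F2. Over the 18 F2 testis libraries, Pearson's r between its log2(CPM + 1) and the mean log2(CPM + 1) of 16 round spermatid markers was 0.81 (permutation test with 100000 resamples, two-sided p 4e-05, adjusted p 0.00096 over 24 relations). Spearman's rho was 0.78 (permutation adjusted p 0.00552), and r was 0.74 without the 2 libraries farthest from the median of the marker level. Over the 9 F1 libraries r was -0.0023. The permutations here and below shuffled all libraries of a generation without regard to their groups. Differences between groups therefore enter both r and p, and the libraries of a group may not be separate animals. Marker means were 7.42, 7.39 and 7.40 in the control cross and 7.37, 7.34 and 7.23 in paternal dose 1, where 0 of the 16 markers changed and their median log2 change was -0.12. The part of the germ cell mix in the Olfr613 difference was not tested.

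**Figure D4:**
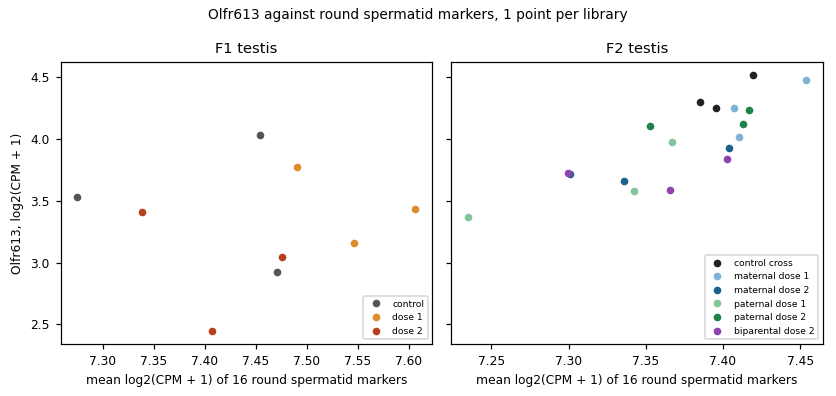
Each point is 1 testis library, with the mean log2(CPM + 1) of 16 round spermatid markers on the x axis and log2(CPM + 1) of Olfr613 on the y axis, coloured by group. F2 points rise from lower left to upper right (r 0.81), and F1 points show no such order (r -0.0023).

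Of the 24 relations between the 3 leading genes and 4 germ cell lists, 1 other passed on Pearson's r: Olfr112 with spermatocyte markers in F2, at -0.64 (permutation adjusted p 0.0246). Its rho of -0.54 did not pass (adjusted p 0.0884), and r was -0.32 without the 2 farthest libraries, so the relation rests on them. No relation of Olfr701 passed. The 3 genes whose F2 pattern was most like that of Olfr112 were Mrs2 (r 0.85), 4933427E13Rik (0.85) and Gm8801 (0.82), over 18 libraries and 19378 genes, and the most alike member was Olfr357 (0.45).

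Olfr112 itself differed between libraries of 1 cross. It stood at 16.1, 13.9 and 16.1 CPM in the control cross, 19.0, 16.1 and 18.9 in maternal dose 1, and 5.13, 14.3 and 13.2 in paternal dose 1. Library A of paternal dose 1 was the lowest of all 27. Maternal dose 2 had 13.4, 13.6 and 12.1 CPM, paternal dose 2 had 17.7, 17.8 and 15.5, and biparental dose 2 had 15.8, 15.2 and 15.6. No edgeR test of Olfr112 passed, the lowest adjusted p being 0.234 for maternal against paternal dose 1.

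Olfr1509, known as MOR244-3 and as a receptor for a thiol of male mouse urine, fell in maternal dose 2. Counts were 38, 24 and 20 in the control cross (0.873, 0.648 and 0.529 CPM) and 0, 4 and 6 in maternal dose 2 (0, 0.103 and 0.124 CPM). The groups did not overlap, and all 15 libraries of the exposed crosses were below the control cross. The log2 change was -3.08 ± 0.59 (SE), with an edgeR adjusted p of 0.0255 and lower levels in 3 of 3 libraries. The call was lost without any 1 of the 6 libraries (control cross A, B or C, maternal dose 2 A, B or C), with adjusted p values of 0.0506 to 0.172. It was also lost with only these 6 libraries in the fit (0.0765) and with all 27 (0.549). DESeq2 gave Olfr1509 no adjusted p in this comparison, but called it for any difference among the 6 F2 groups (DESeq2 adjusted p 0.00685). The maternal dose 2 call held in edgeR with RLE size factors (adjusted p 0.0254), without the filter on low counts (0.0242) and with the library letter as a block (0.0223).

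Across the remaining crosses Olfr1509 stood at 0.202, 0.369 and 0.388 CPM in maternal dose 1, 0.312, 0.239 and 0.281 in paternal dose 1, 0.127, 0.127 and 0.314 in paternal dose 2, and 0.229, 0.372 and 0.0815 in biparental dose 2. It had the lowest member p for paternal dose 2 against the control cross (log2 change -1.83 ± 0.53 SE, edgeR adjusted p 0.909). In F1 control it had 1, 20 and 3 counts, in dose 1 it had 14, 2 and 10, and in dose 2 it had 2, 1 and 0.

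2 more genes had the lowest p of a comparison without a call. Olfr212 stood at 6.29, 6.24 and 6.06 CPM in the control cross and at 7.17, 8.42 and 8.84 in maternal dose 1, a log2 change of 0.39 ± 0.13 (SE) with an edgeR adjusted p of 0.730. Olfr1444 stood at 0.417, 0.310 and 0.456 CPM in maternal dose 2 and at 0.507, 1.25 and 0.733 in paternal dose 2, a log2 change of -1.07 ± 0.38 with an adjusted p of 0.193. In both cases the libraries of the groups did not overlap.

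**Figure D5:**
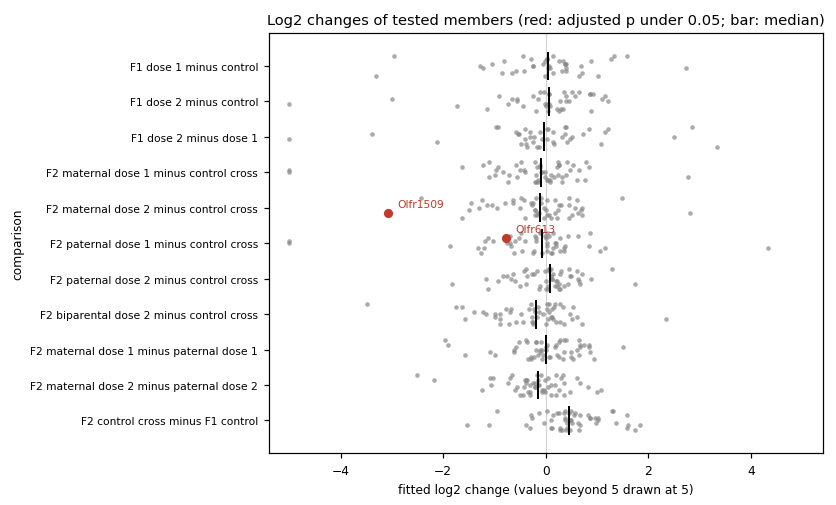
Each point is the fitted log2 change of 1 tested member in 1 comparison of 2 groups, values beyond 5 are drawn at 5, bars are medians and red marks an edgeR adjusted p under 0.05. Olfr1509 (-3.08) and Olfr613 (-0.77) are the 2 red points, and the median of 0.45 for F2 control cross minus F1 control is partly fixed by the choice of members, which weights F2 libraries more.

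Taking all 54 genes, the median log2 change against the control cross was -0.10 in maternal dose 1, -0.12 in maternal dose 2, -0.08 in paternal dose 1, 0.08 in paternal dose 2 and -0.20 in biparental dose 2. The median over all 19379 tested genes was 0.00 or -0.01 in each. Members lower than the control cross counted 31, 31, 29, 20 and 32 of 54 in that order. Several of these directions rest on 1 library. Without control cross A the median was 0.01 in maternal dose 1, with 27 higher and 27 lower, and 0.02 in maternal dose 2, with 30 higher and 24 lower. Without paternal dose 2 B the median of that cross was -0.04, with 26 higher and 28 lower. The biparental dose 2 median stayed below 0 without each of the 6 libraries compared, from -0.23 to -0.11.

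The 2 control groups were also compared between generations. Members were chosen on a mean that takes 18 of its 27 libraries from F2, so the direction of this comparison over the members is partly fixed by the choice and is given as a description. In the fit of all 27 testis libraries, 45 of 54 members were higher in the F2 control cross than in F1 control and 9 were lower, with a median log2 change of 0.45 beside 0.00 over all 19578 genes. No member was called (0.516% of all genes were), and 11 of 54 (20.4%) had an unadjusted p under 0.05, beside 22.0% of all genes. DESeq2 gave 15 members an adjusted p and called 1, Olfr613 (0.0230). Olfr39 had the lowest p, at 0.396, 0.214 and 0.193 CPM in F1 control and 0.896, 0.837 and 0.979 CPM in the F2 control cross. Its groups did not overlap, and its log2 change was 1.74 ± 0.46 (SE) with an edgeR adjusted p of 0.0695. With only the 6 libraries compared it was called (adjusted p 0.0474). Without F1 control B the fit called 3 members, Olfr613, Olfr1445 and Olfr1509, all higher in F2. In the members' sum, F1 control had 64.5, 79.3 and 58.9 CPM and the F2 control cross 98.4, 79.8 and 85.6 CPM. Generation and any date or batch of preparation cannot be told apart, since each generation's libraries are of 1 generation only.

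Olfr1188 and Olfr1186 were present or absent together, library by library. Both had 0 counts in the same 14 testis libraries. In 12 others Olfr1188 had 32 to 137 counts and Olfr1186 had 5 to 49. The last, F1 dose 1 C, the deepest library, had 2 and 1 counts. A count of 0 allows up to 3 counts, or 0.0951 CPM in the shallowest testis library, whereas the lowest of the 12 libraries had 0.790 CPM of Olfr1188.

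Within 6 of the 9 groups some libraries had both genes and others neither. In CPM, Olfr1188 stood at 0, 0 and 2.32 in F1 control, 0.790, 2.36 and 0.0163 in F1 dose 1, and 2.04, 0 and 2.504 in F1 dose 2. In F2 it stood at 1.95, 1.189 and 0 in the control cross, 3.57, 0 and 1.66 in maternal dose 2, 1.62, 0 and 3.32 in paternal dose 2, and 0, 1.59 and 0 in biparental dose 2. All 6 libraries of the maternal dose 1 and paternal dose 1 crosses were at 0 for both genes. The edgeR test of any difference among the 6 crosses gave Olfr1188 an adjusted p of 0.390 and Olfr1186 one of 0.469. The genes are next to each other in the RefSeq order of Olfr genes and share no identical stretch of 100 bases of annotated transcript. That check covers identical stretches only, and whether reads of one were counted for the other was not tested. Because the libraries form 2 clusters, no correlation is given.

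Other neighbours were compared the same way. In RefSeq order 23 of the 54 members lie next to another member, forming 13 adjacent pairs. For the other 12 pairs the correlation of log2(CPM + 1) was computed in each generation, 24 relations in all. In F2 (n = 18) it passed for Olfr1392 with Olfr1393 (r 0.78, permutation adjusted p 0.00144, rho 0.78), Olfr39 with Olfr873 (r 0.77, permutation adjusted p 0.00156, rho 0.76), Olfr39 with Olfr872 (r 0.69, permutation adjusted p 0.00984, rho 0.61) and Olfr127 with Olfr128 (r 0.67, permutation adjusted p 0.0124, rho 0.46). Without the 2 farthest libraries r was 0.70, 0.73, 0.58 and 0.62. On rho only the first 2 pairs passed (permutation adjusted p 0.00456 and 0.00528). In F1 (n = 9) Olfr39 with Olfr873 passed on r (0.83, permutation adjusted p 0.0415) but not on rho, and r was 0.34 without the 2 farthest libraries. Olfr127 and Olfr128, like Olfr1392 and Olfr1393, share transcript stretches, and Olfr39 shares none with Olfr872 or Olfr873. Olfr303 with Olfr301 and Olfr181 with Olfr183 had r of -0.19 and 0.10 in F2, neither of which passed.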

How the data were processed

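RNA-seq covered 54 libraries of mouse testes and ovaries, made per the labels with a stranded mRNA ligation kit and 100 nt reads. The authors deposited 1 table per tissue with un-normalized counts for 26264 genes. TopHat2 2.1.1, Bowtie2 2.4.5, featureCounts 2.0.3 and the build mm39 are listed, per the submitters' processing notes. For the annotation, the strand setting and reads with several matches, the choice is not given in the sources used here. Overlapping genes and near-identical copies are therefore uncertain.

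CPM was the count over the column sum, with no scaling for library composition. The TMM scaling factor of F1 dose 2 C was 0.787, against 0.922 to 1.07 in the other testis libraries. A factor under 1 raises the scaled values of a library, so unscaled CPM of F1 dose 2 C is low by comparison. The F1 (9) and F2 (18) testis libraries were fitted separately, and the generations in 1 fit of 27, with edgeR 4.0.16 (quasi-likelihood test, TMM scaling, filterByExpr at a minimum count of 10, Benjamini-Hochberg adjustment at 0.05). DESeq2 1.42.0 was an alternative. The edgeR test was tried first on simulated counts, with the changed genes drawn from all tested genes. That trial does not say how often a change would be found at the low counts of most members. Same-letter deviations did not correlate above 0.1 for all 3 letters of any comparison, so the main fits used no pairing. In some comparisons all 3 correlations were above 0, as in biparental dose 2 against the control cross (0.126, 0.0456 and 0.108). The letter as a block was an alternative. Exon lengths and shared 100-base stretches came from GENCODE M21, and names, gene order and promoter windows from RefSeq on GRCm38.p6. This build is not that of the counts. Named genes are the 10 with the highest testis mean, those called, the lowest p of each comparison without a call, those as high in ovary as in testis, and those nearest the limit. Olfr16, Olfr33, Olfr161, Olfr697, Olfr873, Olfr1186, Olfr1392 and the adjacent pairs were added after their values were seen. The members and lists were chosen with earlier results of these data known.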

Additional observations from a re-analysis of the deposited data

How the results depend on the processing

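The number of members and each count of called members were recomputed under every alternative fitted for them. Of these values, 167 equalled the reported one or lay within 1.5 times it, and 36 did not. A count of called members that stayed at 0 was taken as equal. No log2 change of a named gene reversed in sign. Of the recomputed values, 15 lost a call, 9 gained one and 108 stayed the same. The 108 include 2 counts of members in ovary, recomputed without F1 control A, which are not tests. The rest of the 108 kept their side of the threshold. A limit of 0.1 CPM gave 83 members and one of 0.5 CPM gave 26. DESeq2 called 3 members for any difference in F1, 1 for F1 dose 1 against control, 3 for F1 dose 2 against dose 1, 1 between generations, 3 for any difference in F2, 1 for biparental dose 2, 1 for maternal against paternal dose 1 and 2 for maternal dose 2. With only the 6 libraries compared, 1 member was called between generations, 0 for maternal dose 2 and 0 for paternal dose 1, and in the fit of all 27 libraries the last 2 were also 0. Without the filter on low counts 1 member was called for any difference in F2. Leaving out 1 library gave 0 to 3 between generations, 0 to 1 for any difference in F2, 0 to 1 for maternal against paternal dose 1, 0 for maternal dose 2 and 0 to 1 for paternal dose 1. Why these counts moved was not tested.

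Libraries share only a letter: the correlation of same-letter deviations ran from -0.375 to 0.375, and no comparison had every pair over 0.1. With the letter as a replicate block, 2 members were called between generations, 1 for any difference in F2, 1 for biparental dose 2, 1 for maternal against paternal dose 1 and 2 for maternal dose 2. Under the block these calls were Olfr613 in each of the 5 (adjusted p 0.0208, 0.00336, 0.0344, 0.0307 and 0.00793). The others were Olfr39 between generations (0.0487) and Olfr1509 in maternal dose 2 (0.0223). The call of Olfr613 in paternal dose 1 held under the block (edgeR adjusted p 0.00401). Over all genes the calls moved more: between generations from 101 to 756 with DESeq2 and 496 with the block, for maternal dose 2 from 72 to 336 and 297, for maternal against paternal dose 2 from 23 to 478 and 280, for any difference in F2 from 31 to 547 and 97, and for paternal dose 1 from 39 to 234 and 84. In F1, DESeq2 moved dose 1 against control from 4 to 25, dose 2 against control from 1 to 5, dose 2 against dose 1 from 5 to 23 and any difference from 5 to 37. For maternal against paternal dose 1 calls moved from 8 to 152 and 27, for biparental dose 2 from 3 to 30 and 9, for maternal dose 1 from 2 to 13 and 0, and for paternal dose 2 from 1 to 7 and 3. Leaving out 1 library also moved the counts over all genes. Maternal dose 2 had 0 calls without control cross A or maternal dose 2 C, and 30 to 67 without any other of its libraries. Between generations there were 0 without F1 control C, F2 control cross A or F2 control cross C. The count was 15, 276 and 21 without F1 control A, F1 control B and F2 control cross B. In the fit of all 27 libraries every F2 test had 0 calls. At the depth of these libraries a gene at 0.2 CPM rests on few reads, and 3 counts, the limit a count of 0 allows, equal 0.0951 CPM in the shallowest testis library and 0.0245 CPM in the deepest. That limit covers counting error only.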
